A study of Homo sapiens with 16 samples.

Results

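The 54 interferon-stimulated genes described here are genes whose transcription is known to rise when a cell is exposed to interferon. Each was taken as the locus of the table that carries its symbol, and 52 of the 54 had a mean of at least 1 FPKM over the 16 libraries and were tested among 11647 such loci, of 24293 in all. The unit, FPKM, divides fragments by the length of the transcript and by the size of the library, so that levels can be compared between genes. The 52 tested genes were 5 sensors of foreign nucleic acid, 4 transcription factors and 43 of 45 effectors. XAF1 (mean 0.883 FPKM) and EPSTI1 (mean 0.605 FPKM), both effectors, fell under the limit, and DHX58 (mean 1.3 FPKM) and TRIM22 (mean 1.53 FPKM) were the nearest above it.

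All cells were HCC4006, an established lung adenocarcinoma line with an activating EGFR mutation, and no other line was measured. After 24 hours of growth they were kept for 24 hours with gefitinib at 100 nM, which blocks the kinase of EGFR, with 100 nM AZ1366, which blocks the tankyrases, with 100 nM of each, or with the vehicle DMSO. Each of the 4 groups had 4 libraries of polyA RNA. Whether the 4 came from separate cultures is not in the labels. The spread behind every p-value is therefore that between libraries and may be technical. These were bulk libraries, in which a change in every cell and a change in the share of cells with a transcript cannot be told apart.

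Interferons bind receptors that activate JAK kinases, and these phosphorylate STAT2 among other carriers of the signal. STAT2 and IRF9 are subunits of ISGF3, a complex that binds the interferon-stimulated response element (ISRE) in the promoters of many of the genes described here, whereas the gamma-activated site (GAS) is known from promoters that respond to interferon-gamma. Sensors such as RIG-I start interferon production when they meet viral RNA, and effectors block steps of viral entry, translation and replication. STAT2, IRF9, IRF1 and IRF7 are themselves induced by interferon, so the system amplifies its own signal.

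Promoter stretches were read from RefSeq (GRCh38.p14), which held a promoter for 44 of the 54 genes. Windows reached 250 bases before the transcript start, and 28 of the 44 genes (63.6%) held the ISRE core GAAANNGAAA, or TTTCNNTTTC on the other strand, in at least 1 window. It was found in 32 of their 58 windows (55.2%), against 1061 of 35116 windows of all genes (3.02%). The GAS core TTCNNNGAA, which reads the same on both strands, was found in 13 of the 58 windows (22.4%) and in 6.57% of all windows. The stretches below belong to the 6 genes with an ISRE core that differed most between gefitinib and vehicle, with the core in capitals and each read in the direction of its gene.
MX1: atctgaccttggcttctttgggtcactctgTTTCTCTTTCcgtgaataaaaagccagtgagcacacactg
IFI27: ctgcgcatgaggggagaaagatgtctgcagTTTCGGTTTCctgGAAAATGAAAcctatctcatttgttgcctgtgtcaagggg
GBP1: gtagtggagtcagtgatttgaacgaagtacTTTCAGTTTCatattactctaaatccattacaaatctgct
RTP4: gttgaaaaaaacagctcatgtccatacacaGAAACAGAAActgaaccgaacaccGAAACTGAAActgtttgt
RSAD2: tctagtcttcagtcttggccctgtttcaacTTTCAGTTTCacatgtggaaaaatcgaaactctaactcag
IFIT1: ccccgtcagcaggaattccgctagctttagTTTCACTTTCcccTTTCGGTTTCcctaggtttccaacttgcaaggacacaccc
In the order printed, they lie at chr21:41431824-41431893 (+ strand), chr14:94110598-94110680 (+ strand), chr1:89065296-89065365 (- strand), chr3:187368313-187368384 (+ strand), chr2:6877602-6877671 (+ strand) and chr10:89392477-89392559 (+ strand). IFI27, RTP4 and IFIT1 each held 2 copies. By class, 11 of 13 direct antiviral genes and 2 of 4 sensors had the core, and 0 of 3 transcription factors (STAT2, IRF1 and IRF9) had it in this window. A match of these letters is a description and not a binding site. The median change of log2(FPKM + 1) with gefitinib against vehicle was 0.87 for the 27 tested genes with the core and 1.06 for the 15 without it. The genes not matched were OAS2, OASL, MX2, IFIT2, IFITM2, DHX58, IRF7, USP18, TRIM22 and GBP2.

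Summed FPKM was 433357 to 478179 per library, and the depth in reads is unknown. The cells expressed all 5 epithelial markers, with summed levels of 2760 to 3050 FPKM with gefitinib, 2580 to 3280 with AZ1366, 2300 to 2530 with both and 3570 to 4050 with vehicle. The single markers did not move alike. Mean KRT8 was 1450 FPKM with vehicle and 695 with both, and KRT18 was 1050 and 486. EPCAM was 229 with vehicle and 292 with both, KRT19 was 801 and 793, and CDH1 was 173 and 137. Of the markers of other cell types, 1 of 5 fibroblast genes (COL1A1), 0 of 5 leukocyte genes and 0 of 3 endothelial genes reached a mean of 1 FPKM over the 16 libraries. Some moved with the groups: the fibroblast sum was 3.72 to 3.93 FPKM with gefitinib, 1.95 to 2.54 with AZ1366, 3.22 to 3.65 with both and 2.27 to 2.66 with vehicle. The leukocyte sum was 1.25 to 1.49 FPKM with gefitinib, 1.35 to 1.66 with AZ1366, 1.7 to 1.99 with both and 1.06 to 1.28 with vehicle. The endothelial sum was 0.666 to 0.788 FPKM with gefitinib, 0.241 to 0.389 with AZ1366, 0.535 to 0.694 with both and 0.251 to 0.283 with vehicle. CD3E was at 0 in all gefitinib and vehicle libraries, and the part of these markers in the results was not tested. Relative to the rest of its group, gefitinib replicate 1 had the highest value of 34 of the 52 genes and a median log2 excess of 0.16, against 0.02 over all loci, and gefitinib replicate 4 had a median of -0.22, against -0.04 over all loci. AZ1366 replicate 4 was the highest of its group for 27 of the 52 genes (51.9%) and for 10.1% of all loci, with a median log2 excess of 0.13 in the genes and -0.02 over all loci; AZ1366 replicate 1 was the highest for 46.2% of the genes and 69% of all loci. Without AZ1366 replicate 4, 22 genes were higher with AZ1366 than with vehicle and 4 lower, in place of 26 and 5.

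Vehicle replicate 4 stood apart from the other vehicle libraries in these genes. The plan to give results with and without it was set beforehand, with earlier results of these data known. The counts below therefore describe this library and are not a test of it. It was the highest of the 4 vehicle libraries for 37 of the 52 genes (71.2%), whereas it was the highest for 11.3% of all tested loci. Its level was at least 1.5 times the mean of vehicle replicates 1 to 3 for 9 genes (17.3%) and for 16 of all 11647 tested loci (0.137%), so that 9 of those 16 loci belonged to this list. They were IFI44L (2.85 times), MX1 (2.38), OAS2 (2.18), TRIM22 (1.87), MX2 (1.82), IFIT1 (1.58), CMPK2 (1.55), RSAD2 (1.54) and IFI27 (1.53). Of these, IFI44L had 0.945 FPKM there and 0.321 to 0.343 in the other vehicle libraries, and TRIM22 0.179 and 0.0916 to 0.0972. At such low levels and unknown depth, the ratios of these genes are uncertain. The 6 other named loci at 1.5 times or more were SNORD36A (1.91), CXCL11 (1.73), CXCL17 (1.68), GABRP (1.62), GNG11 (1.56) and TCEANC (1.55). CXCL11, a chemokine known to be induced by interferon-gamma, was scarce, at 0.884 FPKM there and 0.488 to 0.553 in the other vehicle libraries. In none of the 5 tested receptor genes was vehicle replicate 4 the highest, which for so few genes is near the 11.3% of all tested loci. IFNAR2 had 6.9 FPKM there and up to 7.69 in the others. The median ratio was 1.09 for the sensors (1.0 to 1.24), 1.09 for the transcription factors (1.0 to 1.23) and 1.15 for the effectors (0.938 to 2.85). Averaged over the 52 genes, log2(FPKM + 1) was 3.74 in this library and 3.5 to 3.55 in the other vehicle libraries. Why this library differed was not tested, and the main counts are given also without it.

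**Figure D1:**
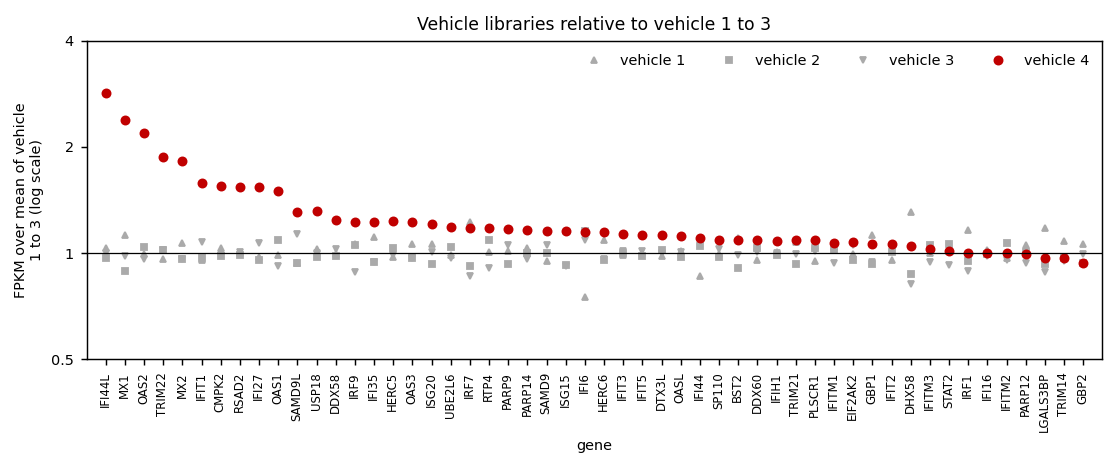
Level of each of the 52 tested genes in the 4 vehicle libraries, divided by the mean of vehicle replicates 1 to 3 (vertical axis, log scale), with genes ordered by replicate 4. Red points are vehicle replicate 4, which reaches 2.85 for IFI44L (0.945 FPKM there, a low level) and is the highest of the 4 libraries for 37 genes.

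In vehicle the genes spanned a wide range of levels. IFITM3, which blocks virus entry at endosomes, had the highest mean, 299 ± 13.1 FPKM (SD, n = 4 here and below), followed by the secreted glycoprotein LGALS3BP at 255 ± 33.3, the ubiquitin-like protein ISG15 at 107 ± 13.8, IFITM2 at 90.9 ± 4.54 and IFITM1 at 64.9 ± 3.59. IFITM3 and LGALS3BP overlapped in their libraries, as did ISG15 and IFITM2. IFITM1, IFITM2 and IFITM3 are related paralogs, and fragments may have been split between those of like sequence, so their levels are uncertain. At the other end, TRIM22, a restriction factor, had 0.116 ± 0.0417 FPKM, EPSTI1 0.163 ± 0.0573 and XAF1 0.285 ± 0.162. The highest group mean was with both compounds for 35 of the 52 genes, with gefitinib for 16 and with vehicle for 1, and the lowest was with vehicle for 40. The matching shares over all tested loci were not computed, so these counts are descriptions only.

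Gefitinib raised nearly the whole list. Differences were tested with limma on log2(FPKM + 1), called at an adjusted p under 0.05, and are given as log2 changes ± the standard error of the fit. By this test 49 of the 52 genes were higher with gefitinib than with vehicle and 0 were lower, where 27.7% of all tested loci were higher and 36.9% lower. DHX58, IFI44L and TRIM22 averaged under 1 FPKM with vehicle and with AZ1366. They passed the limit only through the groups that received gefitinib, so their higher calls in those groups are descriptions and not support. With no limit on the mean, 50 of the 54 listed genes were higher. The median log2 change was 0.92, against -0.06 over all loci. The counts were again 49 and 0 without vehicle replicate 4, beside 25.9% and 35.1% of loci, and the median was 0.97.

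All 5 sensors rose with gefitinib. DDX58 encodes RIG-I, a helicase that senses viral RNA with 5' triphosphate ends. DDX58 measured 34.3, 32.1, 27.8 and 23.6 FPKM with gefitinib, 19.3, 16.8, 16.3 and 19.9 with AZ1366, 29.7, 32.2, 31 and 30.7 with both, and 14.1, 13.9, 14.6 and 17.6 with vehicle. Every gefitinib library lay above every vehicle library, and the log2 change was 0.92 ± 0.0977 (adjusted p = 3.27e-07). IFIH1 encodes MDA5, a sensor of long double-stranded RNA. IFIH1 measured 17.8, 16.6, 13.7 and 11.1 FPKM with gefitinib, 10.5, 6.52, 6.48 and 7.5 with AZ1366, 13.8, 14.7, 12.8 and 13 with both, and 7.45, 7.32, 7.42 and 8.03 with vehicle. The gefitinib group was higher throughout, by 0.87 ± 0.13 (adjusted p = 1.76e-05), with replicate 4 of that group nearest to vehicle.

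DHX58 encodes LGP2, which modulates RIG-I and MDA5. DHX58 measured 1.94, 2.06, 1.78 and 1.54 FPKM with gefitinib, 0.865, 0.518, 0.433 and 0.672 with AZ1366, 2.16, 2.01, 1.83 and 2.07 with both, and 0.959, 0.641, 0.602 and 0.768 with vehicle. It was the scarcest sensor, and its change was 0.70 ± 0.0831 with no overlap between gefitinib and vehicle. As said above, DHX58 passed the FPKM limit only through the groups that received gefitinib. DDX60 encodes a helicase reported to promote RIG-I signalling. DDX60 measured 27, 25.8, 24.1 and 18.9 FPKM with gefitinib, 16, 14.5, 13.9 and 15.9 with AZ1366, 24.2, 24.9, 23.2 and 22.5 with both, and 13.3, 14.4, 14 and 15.1 with vehicle. Its change was 0.71 ± 0.0844, again without overlap. IFI16 encodes a sensor of viral DNA. IFI16 measured 66.8, 61.7, 56.6 and 49.3 FPKM with gefitinib, 51.7, 45.8, 42.3 and 52.1 with AZ1366, 58.3, 57.3, 58.3 and 56.7 with both, and 46, 44.7, 44.1 and 45.1 with vehicle. It was the most abundant sensor and the least changed, by 0.37 ± 0.0776 (adjusted p = 5.34e-04).

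The 4 transcription factors rose as well. IRF9 encodes the DNA-binding subunit of ISGF3. IRF9 measured 31.7, 29.6, 29.9 and 29.7 FPKM with gefitinib, 22, 15.9, 21.2 and 25.5 with AZ1366, 36.2, 39.1, 37.5 and 36.8 with both, and 12.3, 12.2, 10.2 and 14.2 with vehicle. Its gefitinib libraries all exceeded those with vehicle, with a log2 change of 1.25 ± 0.104 (adjusted p = 1.56e-08). STAT2 encodes the other ISGF3-specific subunit. STAT2 measured 7.94, 7.56, 8.21 and 7.44 FPKM with gefitinib, 5.58, 4.42, 4.3 and 4.71 with AZ1366, 8.33, 8.24, 8.49 and 8.72 with both, and 3.78, 3.95, 3.46 and 3.78 with vehicle. The change was 0.89 ± 0.0639, with the smallest standard error of the 4 factors.

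IRF7 encodes the factor that drives interferon-alpha genes. IRF7 measured 5.79, 5.95, 5.35 and 5.64 FPKM with gefitinib, 3.56, 2.61, 3.41 and 3.14 with AZ1366, 6.39, 7.02, 5.69 and 5.6 with both, and 3.9, 2.93, 2.74 and 3.76 with vehicle. The change was 0.63 ± 0.0929, without overlap between gefitinib and vehicle. IRF1 encodes a factor of the same family as IRF7. IRF1 measured 10.9, 11, 10.1 and 9.67 FPKM with gefitinib, 7.23, 5.53, 5.68 and 6.19 with AZ1366, 9.9, 9.67, 8.64 and 9.55 with both, and 8.25, 6.72, 6.29 and 7.09 with vehicle. It had the smallest change of the 4 with gefitinib, 0.50 ± 0.0809 (adjusted p = 3.69e-05), and its libraries did not overlap with those of vehicle either.

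**Figure D2:**
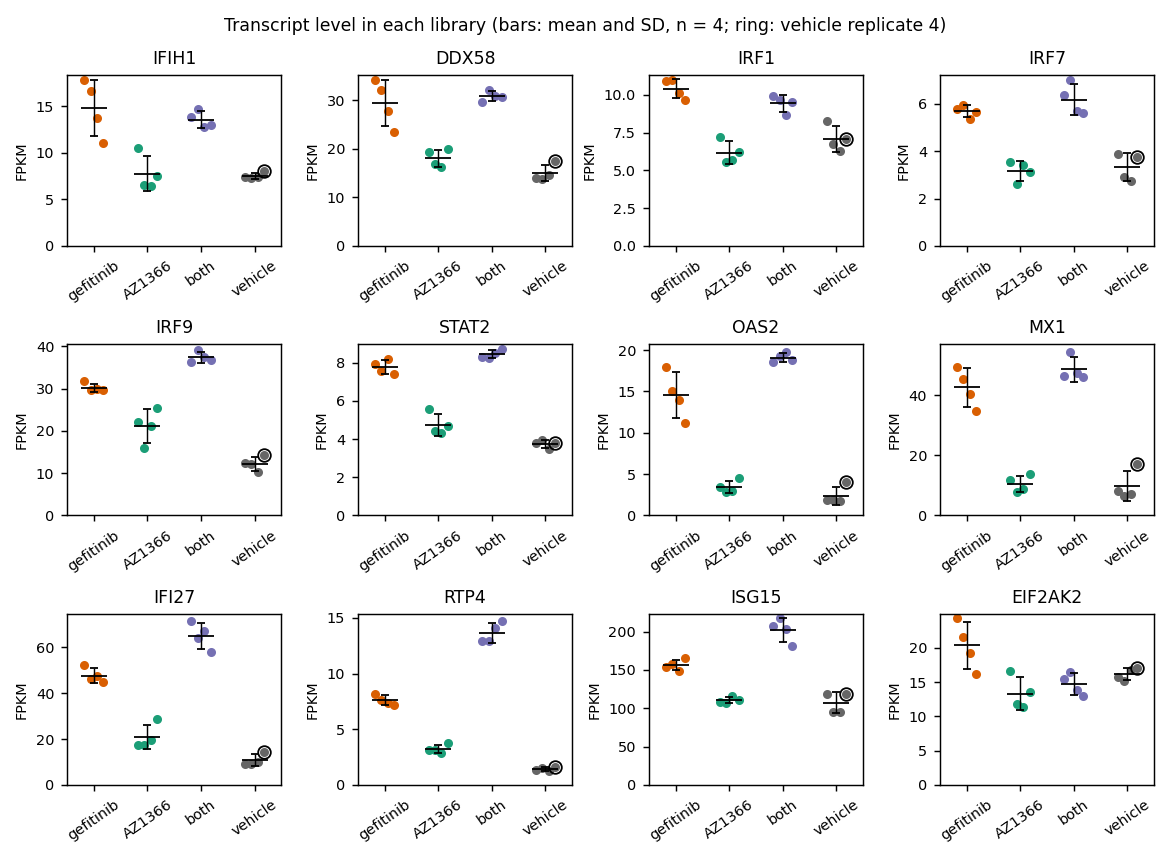
FPKM of 12 genes in every library (vertical axis, linear, from 0), by treatment: points are libraries, bars the mean and SD of 4, and the ring marks vehicle replicate 4. MX1 in that replicate reaches 17.1 FPKM, more than the 13.7 FPKM of the highest AZ1366 library, and below all gefitinib libraries.

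Among the effectors 40 of 43 rose with gefitinib, and they included the largest changes. OAS2 encodes an enzyme that makes 2'-5' oligoadenylates on double-stranded RNA. OAS2 measured 18, 15, 14 and 11.2 FPKM with gefitinib, 3.47, 2.79, 2.97 and 4.53 with AZ1366, 18.5, 19.3, 19.8 and 18.8 with both, and 1.84, 1.93, 1.78 and 4.04 with vehicle. Its log2 change with gefitinib was 2.22 ± 0.166 (adjusted p = 3.60e-09), or 2.43 without vehicle replicate 4. MX1 encodes a dynamin-like GTPase that traps viral nucleocapsids. MX1 measured 49.6, 45.6, 40.5 and 34.9 FPKM with gefitinib, 11.8, 7.69, 8.81 and 13.7 with AZ1366, 46.3, 54.6, 47.6 and 46 with both, and 8.09, 6.42, 7.06 and 17.1 with vehicle. Every gefitinib library lay above vehicle replicate 4, and the change of 2.12 ± 0.216 became 2.41 without that replicate.

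MX2 encodes a related GTPase known for restricting HIV-1. MX2 measured 27, 24.6, 22.1 and 18.9 FPKM with gefitinib, 9.03, 6.99, 7.34 and 9.19 with AZ1366, 27.9, 29.7, 27.8 and 28 with both, and 4.85, 4.37, 4.37 and 8.27 with vehicle. It rose by 1.93 ± 0.143, or 2.12 without vehicle replicate 4. GBP1 encodes an interferon-induced GTPase that attacks vacuoles of intracellular pathogens. GBP1 measured 31.5, 30.5, 28.3 and 22.3 FPKM with gefitinib, 8.68, 6.49, 6.78 and 7.53 with AZ1366, 27.9, 30.3, 26.4 and 28.7 with both, and 6.82, 5.66, 5.74 and 6.44 with vehicle. It rose by 2.02 ± 0.0975 and vehicle replicate 4 did not stand out.

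IFI27 encodes a small mitochondrial protein. IFI27 measured 52.1, 46.1, 47.3 and 45 FPKM with gefitinib, 17.6, 17.5, 19.5 and 28.9 with AZ1366, 71.4, 63.8, 66.9 and 57.9 with both, and 9.18, 9.03, 10.1 and 14.5 with vehicle. All 3 treated groups lay above vehicle, and the change with gefitinib was 2.08 ± 0.141 (adjusted p = 1.07e-09). RTP4 encodes a receptor transporter protein. RTP4 measured 8.18, 7.66, 7.37 and 7.16 FPKM with gefitinib, 3.11, 3.11, 2.91 and 3.75 with AZ1366, 12.9, 12.9, 14.1 and 14.7 with both, and 1.38, 1.49, 1.24 and 1.61 with vehicle. The 4 groups did not overlap at all, and the change with gefitinib was 1.82 ± 0.0693. Because 1 was added to each FPKM, these changes understate those of scarce genes: TRIM22, singled out after its values were seen, averaged 2.41 ± 0.375 FPKM with gefitinib and 0.116 ± 0.0417 with vehicle, a ratio of means of 20.8, where its log2 change was 1.61.

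Each sub-class of effectors rose. The count with gefitinib was 5 of 5 RNA-activated enzymes (median 0.89), which include EIF2AK2, the kinase PKR that halts translation, at 0.30. That call was lost without gefitinib replicate 1 or 2 or vehicle replicate 1 or 2, where EIF2AK2 stood at 0.21 to 0.28 (adjusted p = 0.0664 to 0.124). Direct antiviral proteins rose in 16 of 17 cases (median 1.02), with RSAD2, the enzyme viperin, at 1.74 and CMPK2, a nucleotide kinase encoded next to it, at 1.71. All 5 genes of the ISG15 pathway rose (median 1.09), namely the conjugating enzyme UBE2L6 at 1.31, the protease USP18 at 1.13, HERC6, the ISG15 ligase of mice, at 1.09, ISG15 itself at 0.55 and the ligase HERC5 at 0.47. In the PARP and TRIM families 6 of 7 rose (median 1.06), and of the other effectors 8 of 9 did (median 1.17). PARP9 and DTX3L, partners in a ubiquitin ligase complex, share the locus chr3:122246760-122294049 (hg19) in the table, and no source used here states that strand was used, so their values cannot be fully told apart. ISG20, an RNA exonuclease, at 0.00, TRIM14, an adaptor of RIG-I signalling, at 0.19 and LGALS3BP at -0.02 were not called.

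Several effectors were looked at for their role, after their values were seen. ISG15 measured 154, 158, 149 and 165 FPKM with gefitinib, 108, 107, 116 and 111 with AZ1366, 207, 217, 203 and 181 with both, and 119, 95.7, 94.7 and 119 with vehicle. Its protein is conjugated to others like ubiquitin, and its libraries with both lay above all others. IFIT1 encodes a protein that binds viral RNA lacking a host-type cap. IFIT1 measured 38.8, 32.1, 29.1 and 22.6 FPKM with gefitinib, 10.8, 9.05, 8.28 and 11.8 with AZ1366, 32.7, 35.9, 37.4 and 33.3 with both, and 7.62, 7.73, 8.56 and 12.6 with vehicle. It rose by 1.65 ± 0.15 with gefitinib and 1.85 ± 0.15 with both, and vehicle replicate 4 exceeded every AZ1366 library. BST2 encodes tetherin, which holds budding virions at the cell surface. BST2 measured 62.5, 57.8, 51.6 and 59.5 FPKM with gefitinib, 35, 39, 41 and 44.5 with AZ1366, 67.8, 74.3, 70.6 and 66.3 with both, and 33.6, 27.6, 30.2 and 33.3 with vehicle. Its AZ1366 libraries lay just above those with vehicle, and the gefitinib and combination libraries well above.

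Of the remaining effectors, IFI44L rose by 1.37 with gefitinib, SAMD9L, a paralog of SAMD9, by 1.52, GBP2 by 1.49, and TRIM21, a cytosolic antibody receptor, by 1.06. PARP14 and PARP12, which are ADP-ribosyltransferases, rose by 1.08 and 0.43. OASL, which lacks the synthetase activity of its relatives, rose by 0.89, and OAS3 by 0.56. IFI6, IFI35, IFI44 and SP110, a nuclear body protein, rose by 1.23, 1.17, 0.78 and 0.46.

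XAF1 and EPSTI1, which were not tested, had their higher values with gefitinib as well. XAF1 measured 2.18, 1.96, 1.47 and 1.1 FPKM with gefitinib, 0.314, 0.214, 0.124 and 0.291 with AZ1366, 1.32, 1.61, 1.26 and 1.13 with both, and 0.244, 0.262, 0.123 and 0.511 with vehicle. EPSTI1 measured 1.1, 1.11, 1.04 and 0.746 FPKM with gefitinib, 0.286, 0.113, 0.231 and 0.334 with AZ1366, 1.07, 1.13, 0.908 and 0.955 with both, and 0.137, 0.127, 0.14 and 0.249 with vehicle. For both genes the gefitinib and combination libraries lay above all vehicle libraries, and the AZ1366 libraries overlapped with those of vehicle.

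**Figure D3:**
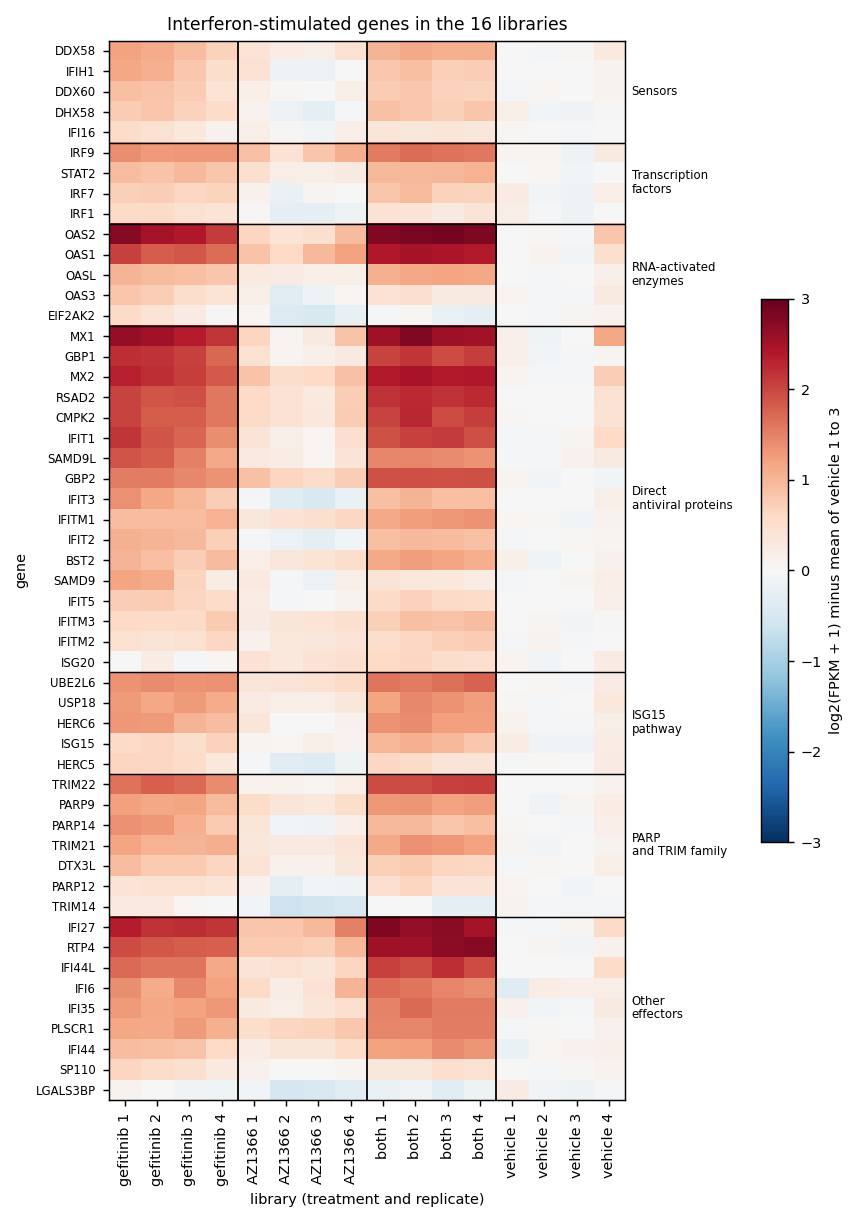
Each tested gene (rows, by class) in each library (columns), as log2(FPKM + 1) minus the mean of vehicle replicates 1 to 3. Red is higher and blue lower; the gefitinib and combination columns are red for nearly all genes, and vehicle replicate 4 is red for MX1, OAS2 and MX2.

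AZ1366 alone changed these genes less and in both directions. With AZ1366, 26 of the 52 genes were higher than with vehicle and 5 lower, beside 18.6% and 39.8% of all tested loci. The median log2 change was 0.20, against -0.10 over all loci. Leaving out vehicle replicate 4 gave 28 and 2, beside 16.8% and 37.2% of loci, with a median of 0.26.

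The genes that rose most with AZ1366 were IFI27 by 0.90 ± 0.141 (adjusted p = 8.33e-05) and RTP4 by 0.80 ± 0.0693 (adjusted p = 2.58e-07). OAS1 encodes another oligoadenylate synthetase. OAS1 measured 19.2, 16.1, 16.5 and 14.4 FPKM with gefitinib, 7.82, 6.26, 8.43 and 10.1 with AZ1366, 24.4, 26.4, 25.2 and 24.2 with both, and 3.8, 4.19, 3.54 and 5.76 with vehicle. The AZ1366 libraries all exceeded those with vehicle, by 0.78 ± 0.123, which was 0.90 without vehicle replicate 4. IRF9, whose library values are given above, rose by 0.73 ± 0.104. GBP2 encodes a GTPase of the same family as GBP1. GBP2 measured 25.1, 25.7, 23.5 and 21.9 FPKM with gefitinib, 15.6, 13.2, 12.2 and 14.1 with AZ1366, 33.1, 33.3, 32.7 and 33.3 with both, and 8.55, 7.57, 8.02 and 7.54 with vehicle. All AZ1366 libraries were above vehicle, by 0.72 ± 0.0667, and vehicle replicate 4 was the lowest of its group. PLSCR1 encodes a phospholipid scramblase with antiviral activity. PLSCR1 measured 86.1, 84.9, 93.9 and 80.5 FPKM with gefitinib, 54.7, 59.8, 60.5 and 67.5 with AZ1366, 107, 106, 112 and 111 with both, and 36.1, 39.1, 38.5 and 41.3 with vehicle. It rose by 0.63 ± 0.0626, also without overlap.

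The 5 genes that were lower with AZ1366 were IFIT3, HERC5, EIF2AK2, TRIM14 and LGALS3BP. IFIT3 encodes an RNA-binding antiviral protein that acts with IFIT1. IFIT3 measured 64, 55.5, 49.3 and 40.7 FPKM with gefitinib, 23.7, 18.4, 17.2 and 20.8 with AZ1366, 46.2, 49.7, 45.9 and 45.9 with both, and 23.8, 24.1, 24.5 and 27.4 with vehicle. The AZ1366 libraries lay below those with vehicle, and the change was -0.31 ± 0.109 (adjusted p = 0.0202). HERC5 is the ligase that attaches ISG15. HERC5 measured 5.88, 5.77, 5.42 and 4.53 FPKM with gefitinib, 3.32, 2.47, 2.37 and 2.96 with AZ1366, 5.83, 5.57, 4.78 and 4.72 with both, and 3.33, 3.53, 3.37 and 4.2 with vehicle. The AZ1366 libraries were again lower, by -0.29. EIF2AK2 measured 24.3, 21.6, 19.2 and 16.2 FPKM with gefitinib, 16.6, 11.8, 11.3 and 13.5 with AZ1366, 15.5, 16.5, 13.8 and 13 with both, and 15.8, 15.2, 16.8 and 17.1 with vehicle. Here the first AZ1366 library lay within the vehicle range and the other 3 below it, with a change of -0.28. Without vehicle replicate 4 none of these 3 passed the threshold: IFIT3 was at -0.27 (adjusted p = 0.0633), HERC5 at -0.23 (adjusted p = 0.0538) and EIF2AK2 at -0.26 (adjusted p = 0.0993). These calls were lost in other ways as well: HERC5 without AZ1366 replicate 3 (adjusted p = 0.0526), IFIT3 without AZ1366 replicate 2 or 3, with an adjusted p of up to 0.077, and EIF2AK2 in 9 of the fits that left out 1 library, over which it ran from -0.29 to -0.21.

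TRIM14 and LGALS3BP were lower with AZ1366 in either fit. TRIM14 measured 18.8, 18.8, 15.8 and 15.3 FPKM with gefitinib, 14.2, 9.46, 10.0 and 10.5 with AZ1366, 14.9, 15.2, 12.4 and 12 with both, and 16.3, 14.6, 14.3 and 14.6 with vehicle. AZ1366 replicate 1 came nearest to vehicle, and the change was -0.42 ± 0.106 (adjusted p = 0.00307); the locus, chr9:100818959-100881488 (hg19), overlaps that of NANS, so its level is uncertain. LGALS3BP measured 273, 257, 239 and 233 FPKM with gefitinib, 243, 181, 186 and 200 with AZ1366, 222, 236, 205 and 231 with both, and 304, 240, 228 and 249 with vehicle. Its groups overlapped through AZ1366 replicate 1, and the change was -0.34 ± 0.0938 (adjusted p = 0.00587). The count of lower genes depended on single libraries: it was 2 without vehicle replicate 4 or without AZ1366 replicate 3, 3 without AZ1366 replicate 2, and 8 without AZ1366 replicate 1.

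The remaining 21 genes had no call with AZ1366, and for MX1 and USP18 this turned on vehicle replicate 4. MX1 differed from vehicle by 0.18 (95% interval -0.28 to 0.63, adjusted p = 0.495) with all vehicle libraries, and it rose by 0.46 (adjusted p = 0.0167) without replicate 4. USP18, the protease that removes ISG15 and also inhibits the interferon receptor, was at 0.16 (adjusted p = 0.0948) with it and rose by 0.24 (adjusted p = 0.0107) without it. No other gene gained a call in this comparison.

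With both compounds, 48 of the 52 genes were higher than with vehicle and 0 lower, beside 29.9% and 49.4% of all tested loci. The median log2 change was 1.12, against -0.15 over all loci. The same counts were found without vehicle replicate 4, beside 28.8% and 48.3%, with a median of 1.16, while 1 gene was called lower without vehicle replicate 3 or AZ1366 replicate 1. The largest changes were those of OAS2 (2.61 ± 0.166), RTP4 (2.59 ± 0.0693), IFI27 (2.52 ± 0.141), OAS1 (2.31 ± 0.123), MX1 (2.31 ± 0.216) and MX2 (2.22 ± 0.143), with adjusted p-values between 3.69e-15 and 2.38e-08. As ratios of group means, TRIM22 stood at 29.5, RTP4 at 9.55 and IFI44L, a gene of unsettled antiviral function, at 9.27. SAMD9, a restriction factor of poxviruses, at 0.26, TRIM14 at -0.13, EIF2AK2 at -0.14 and LGALS3BP at -0.19 were not called.

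**Figure D4:**
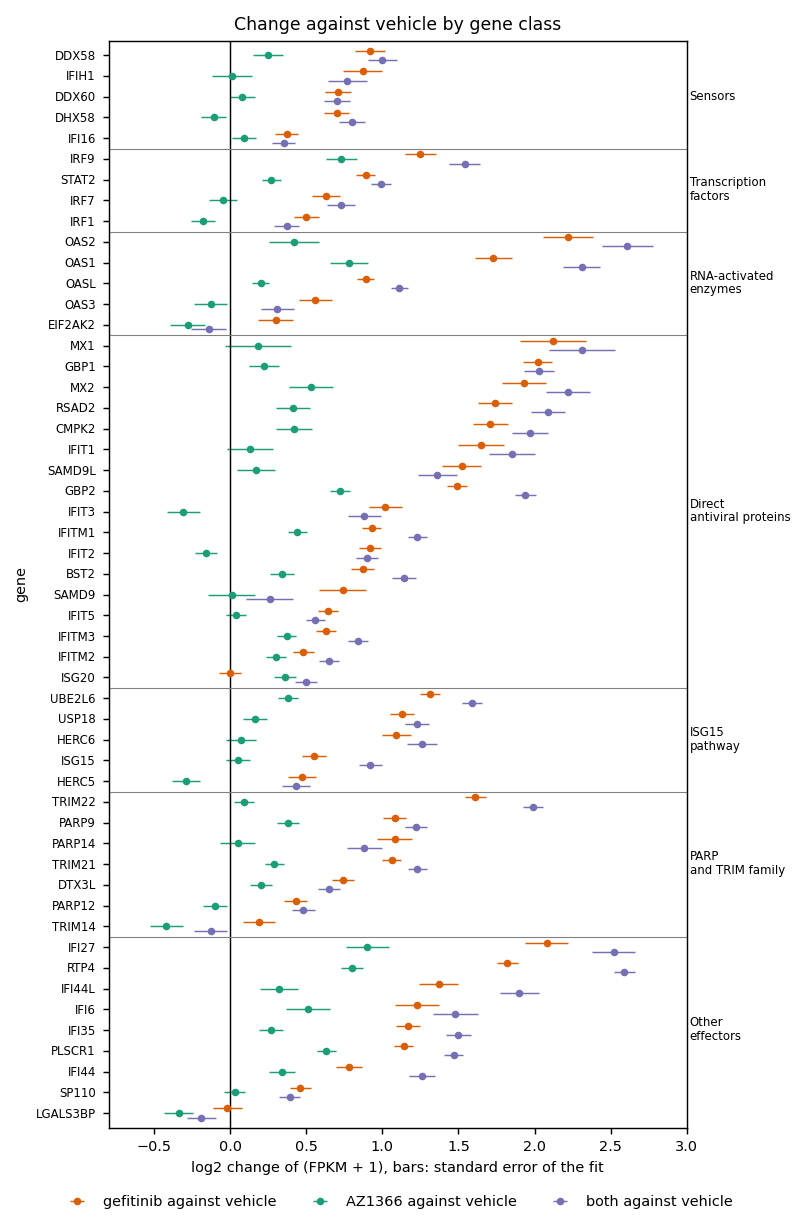
Log2 change of (FPKM + 1) against vehicle for each tested gene (rows, by class), with gefitinib in orange, AZ1366 in green and both in purple; bars are standard errors of the fit. Gefitinib and combination points reach 2.22 and 2.61, and AZ1366 points lie between -0.42 and 0.90.

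Adding AZ1366 to gefitinib raised a subset of effectors further. Set against gefitinib alone, 20 of the 52 genes were higher with both and 3 lower, beside 15.3% and 37.2% of all tested loci, with a median of 0.17 against -0.10 over all loci. RTP4 rose most, by 0.77 ± 0.0693 (adjusted p = 3.79e-07), followed by OAS1 (0.57 ± 0.123), IFI44L (0.53 ± 0.127), ISG20 (0.50 ± 0.0728), IFI44 (0.47 ± 0.087) and GBP2 (0.45 ± 0.0667). ISG20, which gefitinib alone did not change detectably, averaged 17.1 ± 0.759 FPKM with both and 11.8 ± 1.08 with gefitinib. No sensor was called in either direction, with intervals as wide as -0.37 to 0.18 for IFIH1, and of the transcription factors only IRF9 rose, by 0.30 ± 0.104; without gefitinib replicate 2 or combination replicate 2 it stood at 0.28 to 0.29 (adjusted p = 0.0531 to 0.0542).

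The 3 genes that were lower with both than with gefitinib alone were SAMD9, TRIM14 and EIF2AK2. SAMD9 measured 42.8, 40.5, 29.6 and 21.5 FPKM with gefitinib, 22.7, 17.6, 16.2 and 20.7 with AZ1366, 24.3, 22.9, 22.9 and 21.6 with both, and 17.4, 18.3, 19.3 and 21.2 with vehicle. The libraries with both and with gefitinib overlapped, since gefitinib replicates 1 and 2 were high and replicate 4 was not, and the change was -0.48 ± 0.154 (adjusted p = 0.0147). TRIM14 differed by -0.32 and EIF2AK2 by -0.44. SAMD9 lost its call without gefitinib replicate 1 or 2, at -0.38 to -0.35 (adjusted p = 0.0596 to 0.0646), and TRIM14 without either of these or combination replicate 3 or 4, at -0.28 to -0.26 (adjusted p = 0.0629 to 0.0691). The count of lower genes was 1 without gefitinib replicate 1 or 2, and 7 without gefitinib replicate 4. Leaving out vehicle replicate 4, which enters here only through the shared estimate of the spread, gave 23 higher and 3 lower, with OAS2, MX2 and CMPK2 as the additions.

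Gefitinib raised most of the list on top of AZ1366 too. With both, 48 of the 52 genes were higher than with AZ1366 alone and 0 lower, beside 26.9% and 35.7% of all tested loci, and the median was 0.85 against -0.05 over all loci. OAS2 rose by 2.19 ± 0.166, MX1 by 2.14 ± 0.216 and TRIM22 by 1.90 ± 0.068, while SAMD9, ISG20, LGALS3BP and EIF2AK2 were not called.

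The interaction asks whether the change with both differs from the sum of the single changes. None of the 52 genes was called in it by limma, beside 0.326% of all tested loci called higher and 1.49% lower. At an unadjusted p under 0.05 there were 9 genes, 2 higher and 7 lower, and the smallest adjusted p, 0.11, was that of PLSCR1 at -0.30 ± 0.0885. The 95% intervals of the 52 differences reached down to -0.95 (SAMD9) and up to 0.66 (MX1). For those genes, departures of that size from additivity are not excluded by a missing call. Some intervals were much narrower, such as -0.15 to 0.18 for OASL and -0.23 to 0.18 for RTP4. One lower call appeared without gefitinib replicate 4, AZ1366 replicate 1 or AZ1366 replicate 2. The count was again 0 without vehicle replicate 4, beside 0.155% and 0.713% of loci, and the median difference was -0.14 in place of -0.10. For IFI27 it was -0.46 (adjusted p = 0.308) with that library and -0.60 (adjusted p = 0.127) without it.

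**Figure D5:**
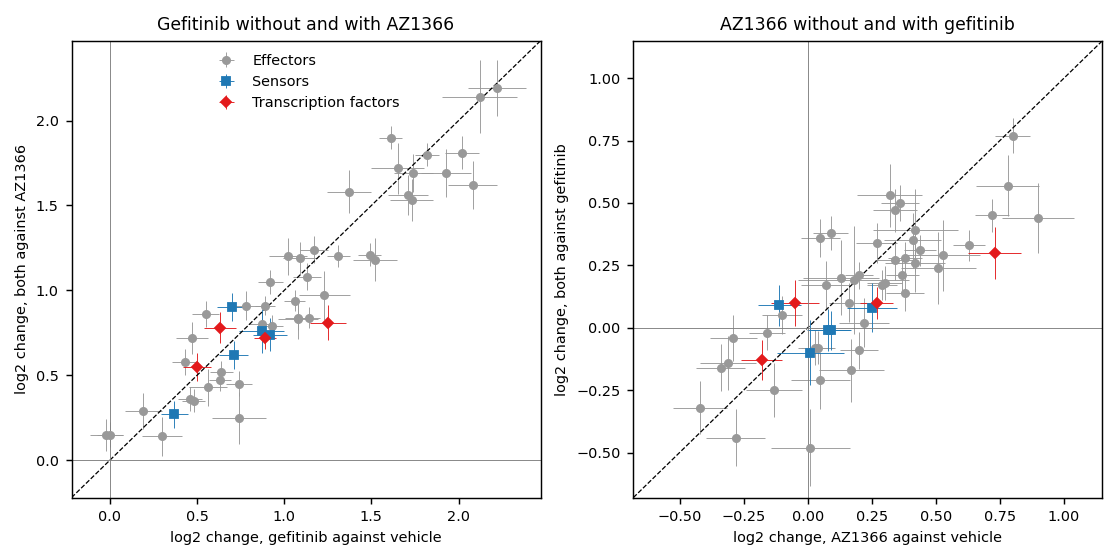
Left, log2 change of each tested gene with gefitinib against vehicle (horizontal) and with both against AZ1366 (vertical); right, AZ1366 against vehicle (horizontal) and both against gefitinib (vertical). Bars are standard errors and the dashed line marks equal changes, where the interaction is 0; the 52 interaction values run from -0.49 to 0.31.

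Sensors, transcription factors and effectors differed in size more than in direction. With gefitinib every sensor and every transcription factor was called higher, with medians of 0.71 for 5 sensors, 0.76 for 4 transcription factors and 1.08 for the 43 effectors. With both compounds the medians were 0.77 for the sensors, 0.86 for the factors and 1.23 for the effectors. The ranges overlapped: sensors ran from 0.37 to 0.92 with gefitinib, transcription factors from 0.50 to 1.25 and effectors from -0.02 to 2.22. Because 1 was added to each FPKM, scarce genes are understated in these medians. With gefitinib DHX58 changed by 0.70 and DDX58 by 0.92, while their ratios of means to vehicle were 2.47 and 1.96. The small gap between sensors and factors is therefore not an order of the 2 classes, and the sizes of all gaps depend on this scale. Without vehicle replicate 4 the gefitinib medians were 0.74 for the sensors, 0.79 for the factors and 1.13 for the effectors.

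AZ1366 alone raised 1 of 5 sensors, 2 of 4 transcription factors and 23 of 43 effectors, with median changes of 0.08 for the sensors, 0.11 for the factors and 0.22 for the effectors. Of all tested loci 18.6% were called higher in this comparison, and the count of sensors is near that share. DDX58 was the sensor, at 0.25 ± 0.0977, and it lost its call in 5 of the fits without 1 library (vehicle 1, 2 or 3, or AZ1366 1 or 4), at 0.21 to 0.24 with adjusted p = 0.0649 to 0.106. IRF9 and STAT2, the ISGF3 subunits, were the factors that rose, STAT2 by 0.27 ± 0.0639. IRF1 stood at -0.18 (adjusted p = 0.0692) and IRF7 at -0.05 (adjusted p = 0.672). Without vehicle replicate 4 it raised 1 sensor (median 0.09), 2 factors (median 0.14) and 25 effectors (median 0.30). All 5 genes called lower with AZ1366 were effectors. As these classes are small and unequal in size, the differences between them are given as descriptions.

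The genes that carry an interferon signal to these targets were read from separate lists. None of 9 ligand genes reached a mean of 1 FPKM. IFNB1, the gene of interferon-beta, averaged 0.115 ± 0.0777 FPKM with gefitinib, 0.0477 ± 0.0494 with AZ1366, 0.120 ± 0.0782 with both and 0.0501 ± 0.0390 with vehicle, and its libraries overlapped between groups. IFNA2 and IFNG were listed at 0 in every library. Of 6 receptor genes 5 were tested, and all 5 rose with gefitinib and with both, while 4 rose with AZ1366. Of all tested loci, 27.7% were called higher with gefitinib, 18.6% with AZ1366 and 29.9% with both. IFNAR2, a subunit of the type I receptor, averaged 13.5 ± 1.07 FPKM with gefitinib, 8.83 ± 1.05 with AZ1366, 14.4 ± 0.996 with both and 7.10 ± 0.567 with vehicle. IL10RB, the subunit shared by the interferon-lambda and interleukin-10 receptors, rose by 0.84 with gefitinib, 0.33 with AZ1366 and 1.07 with both on the log2 scale. IL28RA, the ligand-specific subunit of the lambda receptor, was too low to test, at 0.449 ± 0.0573 FPKM with gefitinib, 0.728 ± 0.0435 with AZ1366, 0.415 ± 0.0469 with both and 0.832 ± 0.0211 with vehicle.

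JAK2, a kinase bound to the interferon-gamma receptor, fell by 0.20 with gefitinib, by 0.31 with AZ1366 and by 0.58 with both. Its call with gefitinib (adjusted p = 0.0434) was lost without vehicle replicate 4 (adjusted p = 0.125). Other genes of the same list went otherwise with gefitinib: JAK1 and STAT3 each rose by 0.38 (adjusted p = 1.7e-04 and 2.28e-04). TYK2 was not called with gefitinib, at -0.05 (adjusted p = 0.632), and fell by 0.37 with AZ1366 and by 0.28 with both. JAK1 and STAT3 were not called with AZ1366 or with both. Of 4 tested inhibitors, 2 were higher and 1 lower with gefitinib, 1 and 1 with AZ1366, and 2 and 2 with both. Of all tested loci, 36.9% were called lower with gefitinib, 39.8% with AZ1366 and 49.4% with both. SOCS3, a feedback inhibitor of JAK kinases, fell in each, by 0.39 with gefitinib, by 0.46 with AZ1366 and by 0.58 with both. SOCS1, another feedback inhibitor of JAK kinases, was too low to test, at 0.627 ± 0.13 FPKM with gefitinib, 0.549 ± 0.0642 with AZ1366, 0.951 ± 0.154 with both and 0.261 ± 0.094 with vehicle. Every treated library had at least 0.503 FPKM of SOCS1, and no vehicle library had more than 0.4.

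Upstream of the ligands, 6 of 13 genes were higher and 3 lower with gefitinib, 3 and 5 with AZ1366, and 5 and 6 with both. Of all tested loci, 27.7% were called higher and 36.9% lower with gefitinib, 18.6% and 39.8% with AZ1366, and 29.9% and 49.4% with both. The counts with AZ1366 and with both are near these shares. TLR3, an endosomal sensor of double-stranded RNA, averaged 4.10 ± 0.439 FPKM with gefitinib, 1.06 ± 0.260 with AZ1366, 5.30 ± 0.287 with both and 0.536 ± 0.0191 with vehicle, with log2 changes of 1.73 with gefitinib, 0.42 with AZ1366 and 2.04 with both. TMEM173, the adaptor STING, rose by 0.85 with gefitinib, 0.44 with AZ1366 and 1.19 with both. MB21D1, the DNA sensor cGAS that feeds STING, fell by 0.33 with gefitinib, by 0.49 with AZ1366 and by 0.85 with both. MAVS, the adaptor of RIG-I and MDA5, fell by 0.28 with gefitinib, by 0.31 with AZ1366 and by 0.62 with both. In vehicle replicate 4 these were close to the other vehicle libraries: TLR3 had 0.538 FPKM and at most 0.562 in the others, and TMEM173 had 19.2 and at most 19.9.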

How the data were processed

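Per the labels' protocols, HCC4006 cells were trypsinized and frozen after treatment, miRNeasy was used for RNA and TruSeq version 2 for polyA libraries; strand use is not stated. The authors deposited FPKM for 24293 loci; the build was hg19 and the tools named were Cuffdiff, Cufflinks 1.3.0 and TopHat 1.4.1, per the submitters' processing notes, which give no roles. Whole reads could not be recovered (for loci averaging at most 0.05 FPKM, the fullest bin of value ratios, width 0.05, held 12.1%), so depth and counting error are unknown. A gene with several rows was taken at the row of highest mean.

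The 11647 loci with a mean of at least 1 FPKM were fitted on log2(FPKM + 1) with limma 3.58.1 in R 4.3.3, over 16 libraries and 4 groups, with a mean-variance trend, 12 residual degrees of freedom, two-sided p and Benjamini-Hochberg adjustment over all tested loci; adjusted p-values are from this fit, which was tested on simulated data. No libraries were identical and all were fitted. Library values are given for the 6 genes of largest change in each comparison with vehicle, all sensors and transcription factors, and genes called against the main direction. The 54 genes, their classes and the other lists were chosen with earlier results of these data known. Comparisons with vehicle share the vehicle libraries. Alternatives covered the pseudocount, the FPKM limit, scaling, the trend, transcript length, a replicate block, the libraries fitted, a minimum change and each library left out. One gene of the pathway lists is not reported here.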

Additional observations from a re-analysis of the deposited data

Results flagged for a closer look

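In groups of 4 libraries, a value was picked out where its gap to the nearest other library exceeded 0.829 of the group's range. This picked 16 of 208 gene and group combinations (7.69%), where chance gives about 1 in 20, and 9 of the 16 were high values of vehicle replicate 4. The share picked over all tested loci was not computed, so these counts are descriptions only. No gene was picked for a difference between treatments, since no interaction was called.

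Vehicle replicate 4 was picked for IFI44L at 0.945 FPKM (next 0.343), OAS2 at 4.04 (next 1.93), MX1 at 17.1 (next 8.09), MX2 at 8.27 (next 4.85), RSAD2 at 3.36 (next 2.21) and CMPK2 at 2.80 (next 1.87). It was picked as well for USP18 at 4.94 FPKM (next 3.85), TRIM22 at 0.179 (next 0.0972) and IFIT5 at 11.9 (next 10.7). All 9 of these genes are effectors, as are 43 of the 52 tested genes. Vehicle replicate 4 had been singled out beforehand, so these picks only describe it.

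The other 7 values were spread over 4 libraries. Gefitinib replicate 4 was high for IFITM1 at 132 FPKM (next 122) and IFITM3 at 512 (next 450), which are paralogs. Combination replicate 2 was high for IFIT3 at 49.7 FPKM (next 46.2) and MX2 at 29.7 (next 28.0). Gefitinib replicate 1 was high for IRF9 at 31.7 FPKM (next 29.9). Vehicle replicate 1 was low for IFI6 at 9.25 FPKM (next 13.5) and high for TRIM14 at 16.3 (next 14.6).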

How the results depend on the processing

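Directions held with 3 exceptions, all under a correction for transcript length: ISG15 with AZ1366 against vehicle turned to -0.25 (adjusted p = 0.0408), and with both against gefitinib IFITM2 turned to -0.08 (adjusted p = 0.129) and IFITM3 to -0.05 (adjusted p = 0.426). Sign changes of values called neither way are not counted. Leaving the minimum change aside, 48 of 49 calls with gefitinib, 48 of 48 with both, 47 of 48 for both against AZ1366, 18 of 31 with AZ1366 and 11 of 23 for both against gefitinib held under every alternative. Requiring an absolute log2 change of at least 1 left 25 genes higher with gefitinib, 27 with both and 20 for both against AZ1366, and 0 higher and 0 lower for AZ1366 and for both against gefitinib. Median-ratio scaling moved the median change of all loci up by 0.11 with AZ1366, by 0.15 with both and by 0.1 for both against gefitinib; the listed genes then had medians of 0.32 with AZ1366, 1.3 with both and 0.28 for both against gefitinib, where all loci had 0. It gave 3 lower with AZ1366, 31 higher for both against gefitinib, and 1 higher and 1 lower interaction. Quantile normalization gave 1 lower with both, and 2 higher and 4 lower interactions. The length correction gave 1 lower with both and 13 higher for both against gefitinib, and fitting only the libraries compared gave 5 lower for both against gefitinib. The causes were not tested.

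Leaving out each library in turn gave 48 to 50 higher and 0 lower with gefitinib, 22 to 28 higher and 2 to 8 lower with AZ1366, 48 to 49 higher and 0 to 1 lower with both, 17 to 23 higher and 1 to 7 lower for both against gefitinib, 47 to 49 higher and 0 lower for both against AZ1366, and 0 higher and 0 to 1 lower interactions. The labels number the libraries of each group alike; the numbers were not taken as pairs, since not every same-numbered pair deviated together: correlations were 0.207 to 0.539 for number 1, -0.447 to 0.29 for number 2, 0.132 to 0.292 for number 3 and 0.0086 to 0.274 for number 4 (16 of 24 above 0.1; 15 of 48 correlated best with their own number). A replicate block gave 50 higher with gefitinib, 27 higher and 6 lower with AZ1366, 48 higher and 1 lower with both, 20 higher and 4 lower for both against gefitinib, 48 higher for both against AZ1366 and 0 interactions. Depth is unknown, so counting error of scarce genes such as TRIM22 and DHX58 cannot be given.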
